A study of Mus musculus with 8 samples.

Results

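Neutrophils store antimicrobial and matrix-degrading proteins in granules that are formed one after another as the cell matures in the BM. Ngp, Ltf, Camp, Lcn2, Chil3, Mmp8, Mmp9, Cd177, Ly6g and Itgb2l code for contents or surface proteins of the later granules and of the cell that carries them. These 10 genes were chosen by name, with earlier results of these data known. All 10 are among the 13305 genes of the deposited count table, where identifiers were matched to GENCODE M21 (GRCm38). Primary granules are filled in promyelocytes, secondary (specific) granules in myelocytes and metamyelocytes, and tertiary (gelatinase) granules in band cells. Transcription of the secondary granule genes is known to need C/EBP epsilon, encoded by Cebpe, so that these transcripts serve in the BM as a readout of how far granulocytes have matured.

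RNA of freshly isolated whole BM from 8 C57BL/6N mice was sequenced, with 1 library per mouse. All 8 mice carried Mx1-Cre, Dnmt3a+/- and Flt3ITD/ITD, a combination that gives acute myeloid leukemia (AML). They differed in the adaptor gene Gab2: 3 mice were Gab2+/+ (AML WT), 2 were Gab2+/- (AML HET) and 3 were Gab2-/- (AML KO). The comparison asks what loss of 1 or both Gab2 alleles does to the leukemic BM. Cre was driven by the Mx1 promoter, which recombined Dnmt3a without an inducing agent, while the Gab2 knockout allele was carried in every cell of the mouse. The age of these 8 mice was not given in the sources used here, and mice without the leukemia alleles were not analysed here.

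The libraries held 28009258 to 39266815 counts on genes. Gab2, the targeted gene, fell by 0.87 on the log2 scale in AML KO against AML WT BM (standard error 0.18, edgeR, Benjamini-Hochberg adjusted p = 0.0420), and reads per gene do not show on which of its exons the remaining counts lie. Levels are given as CPM, counts scaled to the library size with TMM factors, and levels of different genes are compared only per length, as CPM per kilobase of exon (FPKM). None of the 10 genes shares exon bases with another annotated gene.

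In AML KO BM, 8 of the 10 granule genes rose against AML WT BM, and none fell. The fitted log2 difference was positive for all 10, with a median of 2.00, against a median of −0.02 over all 13305 genes. Of all genes tested, 1.77% were called higher at an adjusted p under 0.05. In 9 of the 10 genes every AML KO mouse lay above every AML WT mouse, which was the case for 12.3% of all genes. Counts on the 10 genes made up 0.125%, 0.189% and 0.273% of the AML WT libraries, 0.304% and 0.370% of the AML HET libraries, and 0.829%, 0.794% and 0.648% of the AML KO libraries. The 3 groups therefore did not overlap in this share. Whole BM is a mixture, so more cells that carry these transcripts and more RNA per such cell cannot be told apart in any result that follows.

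**Figure D1:**
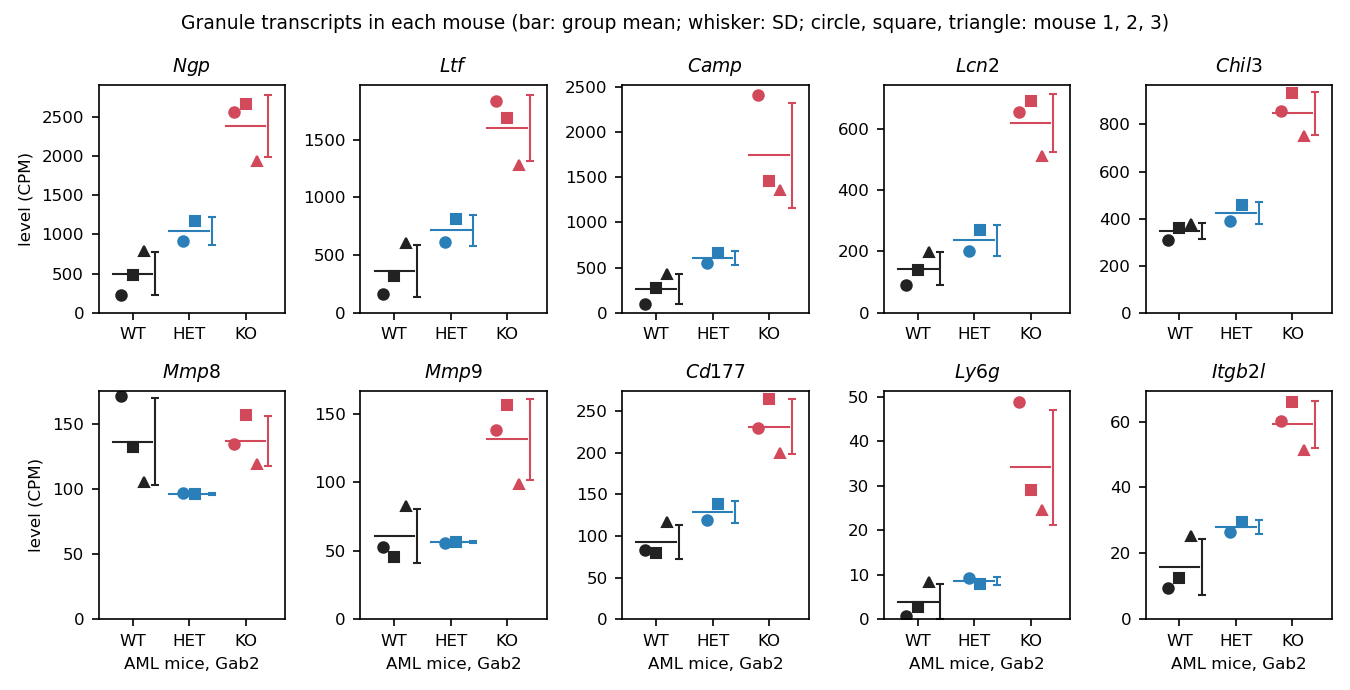
Level of each granule gene in CPM (y axis, linear, from 0) in each of the 8 AML mice, grouped by Gab2 genotype (x axis: WT n = 3, HET n = 2, KO n = 3), with the group mean as a bar and the SD as a whisker. The AML KO mice lie above all AML WT mice for 9 genes, whereas the Mmp8 levels of AML WT and AML KO mice overlap.

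The sequences before the RefSeq transcription start are shown here because C/EBP factors bind DNA of the form TTNNGNAA, and because the genes that share such letters did not all behave alike. RefSeq promoters (GRCm38.p6) were found for 9 of the 10 genes, all but Mmp9, and the 250 bases before each RefSeq start were searched on both strands. TTNNGNAA was found in 8 of the 9, in all but Camp, and in 36.9% of 27025 promoters of the same length. The share was 28.7% among the 10006 promoters that could be matched to a gene of the count table. The exact word TTGGGCAA occurred before Ngp, at 2 places, and before Ltf, and in 0.722% of all promoters. TTGAGCAA occurred before Lcn2, Ly6g and Mmp8, and in 0.836% of all promoters. TTTTGTAA occurred before Chil3 and Mmp8, and in 1.06% of all promoters. These words were picked from the matches in the 9 promoters because more than 1 gene holds them. Their shares over all promoters therefore do not show that the sharing is unusual. Each line gives the gene, the position, the strand and the bases 5′ to 3′ as the gene reads, with matches to TTNNGNAA on either strand in capitals.
Ngp (chr9:110419558-110419807, plus strand): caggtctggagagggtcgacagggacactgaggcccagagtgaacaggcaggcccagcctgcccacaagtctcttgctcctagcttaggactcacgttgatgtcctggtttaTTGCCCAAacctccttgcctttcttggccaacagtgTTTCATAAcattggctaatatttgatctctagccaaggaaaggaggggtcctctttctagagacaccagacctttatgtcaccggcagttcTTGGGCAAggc
Ltf (chr9:111019042-111019291, plus strand): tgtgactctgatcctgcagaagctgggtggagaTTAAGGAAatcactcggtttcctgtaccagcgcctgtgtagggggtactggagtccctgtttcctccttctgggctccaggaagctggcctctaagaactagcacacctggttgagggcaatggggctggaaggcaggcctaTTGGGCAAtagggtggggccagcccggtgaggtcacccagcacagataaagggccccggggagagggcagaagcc
Lcn2 (chr2:32387740-32387989, minus strand): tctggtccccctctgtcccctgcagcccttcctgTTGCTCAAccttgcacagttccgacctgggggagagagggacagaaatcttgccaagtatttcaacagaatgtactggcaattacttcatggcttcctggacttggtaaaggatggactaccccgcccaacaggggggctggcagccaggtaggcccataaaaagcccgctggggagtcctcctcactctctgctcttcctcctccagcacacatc
Ly6g (chr15:75155011-75155260, plus strand): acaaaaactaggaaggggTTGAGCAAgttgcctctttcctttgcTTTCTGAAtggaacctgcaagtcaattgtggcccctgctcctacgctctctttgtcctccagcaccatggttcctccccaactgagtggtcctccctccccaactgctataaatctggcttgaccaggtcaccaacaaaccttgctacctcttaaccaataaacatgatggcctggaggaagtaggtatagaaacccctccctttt
Mmp8 (chr9:7558179-7558428, plus strand): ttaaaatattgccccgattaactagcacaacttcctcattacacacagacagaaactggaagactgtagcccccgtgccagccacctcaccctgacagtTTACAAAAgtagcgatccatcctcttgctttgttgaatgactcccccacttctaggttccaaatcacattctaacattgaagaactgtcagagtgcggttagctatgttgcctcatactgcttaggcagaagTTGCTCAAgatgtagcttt
Camp (chr9:109849457-109849706, minus strand): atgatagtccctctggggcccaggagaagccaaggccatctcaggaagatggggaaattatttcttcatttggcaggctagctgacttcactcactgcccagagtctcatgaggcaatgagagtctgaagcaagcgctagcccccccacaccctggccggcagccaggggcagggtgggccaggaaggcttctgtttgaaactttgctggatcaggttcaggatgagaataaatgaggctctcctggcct
A match on the minus strand of the gene is printed in these lines as its reverse complement, so that the TTGAGCAA of Lcn2 and Mmp8 reads TTGCTCAA. In Ngp the nearest match lies 11 to 4 bases before the start, and in Mmp8 19 to 12 bases before it, whereas in Lcn2, 216 to 209 bases before the start, and Ly6g, 232 to 225 bases before it, the same word is far upstream. Other letters searched were GAGGAAG, a form bound by PU.1 and other ETS factors, AAATCA, a core bound by Gfi1, and TATAAA, the TATA box. A match to AAATCA overlaps one to TTNNGNAA in Ltf and in Chil3. They were found in 4, 3 and 2 of the 9 promoters, and in 10.4%, 12.7% and 12.97% of all promoters. The RefSeq starts are not those of GENCODE for every gene. All 250 bases of the Lcn2 window, 161 of the Camp window, 61 of the Ngp window and 21 each of the Ltf and Ly6g windows lie inside the GENCODE span of the gene given with its values, so that the Lcn2 match and the Ngp match nearest the start are inside the annotated gene. These matches describe letters in the sequence and do not show binding.

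Ngp (ENSMUSG00000032484, chromosome 9 from 110419747 to 110423012, plus strand) codes for neutrophilic granule protein, a secondary granule protein related to cystatins. Its level was 231, 487 and 784 CPM in the AML WT mice, 917 and 1171 CPM in the AML HET mice, and 2559.7, 2666 and 1929 CPM in the AML KO mice. The 3 groups did not overlap, and the lowest AML KO mouse had 2.46 times the level of the highest AML WT mouse. Ngp rose by 2.25 on the log2 scale in AML KO BM (standard error 0.37, edgeR's quasi-likelihood test, Benjamini-Hochberg adjusted p = 0.0166 over all genes, as for the adjusted p values that follow).

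Camp (ENSMUSG00000038357, chromosome 9 from 109847379 to 109849617, minus strand) codes for the cathelicidin precursor, which is cut into an antimicrobial peptide. It was measured at 92.8, 273 and 429 CPM in AML WT, 551 and 666 CPM in AML HET, and 2412, 1462 and 1356 CPM in AML KO mice. AML KO mouse 1 stood highest and AML WT mouse 1 lowest, and the groups did not overlap. Among the 8 genes that passed the test, Camp had the largest log2 difference, 2.72 (standard error 0.48, edgeR, Benjamini-Hochberg adjusted p = 0.0208).

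Ltf (ENSMUSG00000032496, chromosome 9 from 111019271 to 111042767, plus strand) codes for lactoferrin, which binds iron and so withholds it from bacteria. The AML WT mice had 163, 321 and 608 CPM, the AML HET mice 616 and 811 CPM, and the AML KO mice 1839.6, 1688 and 1282 CPM. The highest AML WT mouse came close to the lower AML HET mouse, but no groups overlapped. Ltf rose by 2.14 in AML KO BM on the log2 scale (standard error 0.40, edgeR, Benjamini-Hochberg adjusted p = 0.0270), a call that was lost in 6 of the 8 fits that each left out 1 mouse. Camp, Ngp and Ltf are neighbours in the genome, with gaps of 0.57 Mb between Camp and Ngp and 0.596 Mb between Ngp and Ltf.

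Lcn2 (ENSMUSG00000026822, chromosome 2 from 32384633 to 32388252, minus strand) codes for lipocalin 2, which captures bacterial siderophores. Its level was 91.6, 141 and 199.6 CPM in AML WT, 201 and 271 CPM in AML HET, and 654, 691 and 511 CPM in AML KO mice. AML WT mouse 3 and AML HET mouse 1 were almost level, while the AML KO mice stood clear of both groups. Lcn2 rose by 2.10 on the log2 scale in AML KO BM (standard error 0.27, edgeR, Benjamini-Hochberg adjusted p = 0.00710).

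Chil3 (ENSMUSG00000040809, chromosome 3 from 106147554 to 106167564, minus strand) codes for Ym1, a lectin of the chitinase family without chitinase activity that macrophages also make. It was present at 309, 360.1 and 375 CPM in AML WT, 389.6 and 456 CPM in AML HET, and 858, 932 and 750.0 CPM in AML KO mice. The mice of each group lay close together, with a ratio of highest to lowest of 1.21 in AML WT and 1.24 in AML KO. Chil3 rose by 1.28 on the log2 scale (standard error 0.14), and its adjusted p of 0.00392 (edgeR, Benjamini-Hochberg) was the smallest among the 10 genes. Its near-identical relative Chil4 is not among the genes of the table analysed here, and how reads that align to both were counted was not given in the sources used here.

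The matrix metalloproteinases are stored as inactive precursors. Mmp9 (ENSMUSG00000017737, chromosome 2 from 164940780 to 164955850, plus strand) codes for gelatinase B, which gives the tertiary granules their other name. It had 52.9, 45.5 and 82.8 CPM in AML WT, 55.8 and 56.6 CPM in AML HET, and 138, 157 and 99.0 CPM in AML KO mice. Here the AML HET mice lay inside the AML WT range and the AML KO mice above it. Mmp9 rose by 1.12 on the log2 scale (standard error 0.24, edgeR, Benjamini-Hochberg adjusted p = 0.0460), but passed the threshold in only 1 of the 8 fits that each left out 1 mouse.

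Mmp8 (ENSMUSG00000005800, chromosome 9 from 7558456 to 7568485, plus strand), which codes for the neutrophil collagenase of secondary granules, was the exception. It was measured at 172, 132 and 106 CPM in AML WT, 96.6 and 95.8 CPM in AML HET, and 134, 157 and 119 CPM in AML KO mice. The AML KO mice lay within the AML WT range, and both AML HET mice below every other mouse. The log2 difference of AML KO against AML WT was 0.0038 (standard error 0.18, edgeR, Benjamini-Hochberg adjusted p = 0.992), and with each mouse left out in turn it ranged from −0.15 to 0.19. Mmp8 carries the same TTGAGCAA word as Lcn2 and Ly6g in the sequences printed above.

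The remaining 3 genes code for proteins of the cell surface. Cd177 (ENSMUSG00000052212, chromosome 7 from 24743983 to 24760311, minus strand), a GPI-anchored protein that is also held in secondary granule membranes, had 82.98, 79.8 and 117 CPM in AML WT, 119.6 and 138 CPM in AML HET, and 230.2, 265 and 199.6 CPM in AML KO mice. It rose by 1.31 on the log2 scale (standard error 0.18, edgeR, Benjamini-Hochberg adjusted p = 0.00884). Its groups did not overlap, although AML WT mouse 3 and AML HET mouse 1 were nearly equal.

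Itgb2l (ENSMUSG00000000157, chromosome 16 from 96422288 to 96443619, minus strand), an integrin beta chain related to Itgb2 that is found in myeloid cells, had 9.56, 12.5 and 25.3 CPM in AML WT, 26.6 and 29.6 CPM in AML HET, and 60.2, 65.8 and 51.5 CPM in AML KO mice. The 3 groups followed each other without overlap. Against AML WT, the log2 difference in AML KO BM was 1.91 (standard error 0.31, edgeR, Benjamini-Hochberg adjusted p = 0.0163). Itgb2 itself, the common beta 2 chain of leukocyte integrins, had a log2 difference of −0.04 with an adjusted p of 0.918 from the same edgeR test.

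Ly6g (ENSMUSG00000022582, chromosome 15 from 75155240 to 75159126, plus strand) codes for the antigen by which mouse neutrophils are recognised in flow cytometry. Only 27, 85 and 272 reads were counted on it in the AML WT libraries and 265 and 251 in the AML HET libraries, but 1494, 797 and 832 in the AML KO libraries. This equals 0.664, 2.69 and 8.33 CPM in AML WT, 9.29 and 7.998 CPM in AML HET, and 48.9, 29.0 and 24.5 CPM in AML KO mice. All AML KO mice stood above all others, while AML WT mouse 3 lay between the AML HET mice. Ly6g had the largest log2 difference of the 10 genes, 3.14, and also the largest standard error, 0.68, and missed the threshold with an adjusted p of 0.0524 (edgeR, Benjamini-Hochberg, 0.00710 to 0.278 with each mouse left out in turn). DESeq2 and limma-voom on the same counts placed it past the threshold. Ly6g belongs to a family of similar genes, and how reads shared within it were counted was not given in the sources used here.

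Single libraries decided several of these calls. Without AML WT mouse 2, the count of granule genes called higher in AML KO fell from 8 to 1, with Chil3 as the gene left, and it was 4 without AML KO mouse 1 (Lcn2, Chil3, Cd177 and Itgb2l) and 4 without AML KO mouse 3 (Ngp, Lcn2, Chil3 and Cd177). It was 6 without AML HET mouse 1, 6 without AML HET mouse 2 and 6 without AML KO mouse 2, where Ltf and Mmp9 lost their calls, and 9 without AML WT mouse 3. Without AML WT mouse 1 it stayed at 8, with Ly6g called and Mmp9 not. The log2 differences of the 9 genes other than Mmp8 stayed positive in each of these fits, and Chil3 passed the threshold in all 8, with adjusted p values of 0.00759 to 0.0315 from edgeR's quasi-likelihood test.

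**Figure D2:**
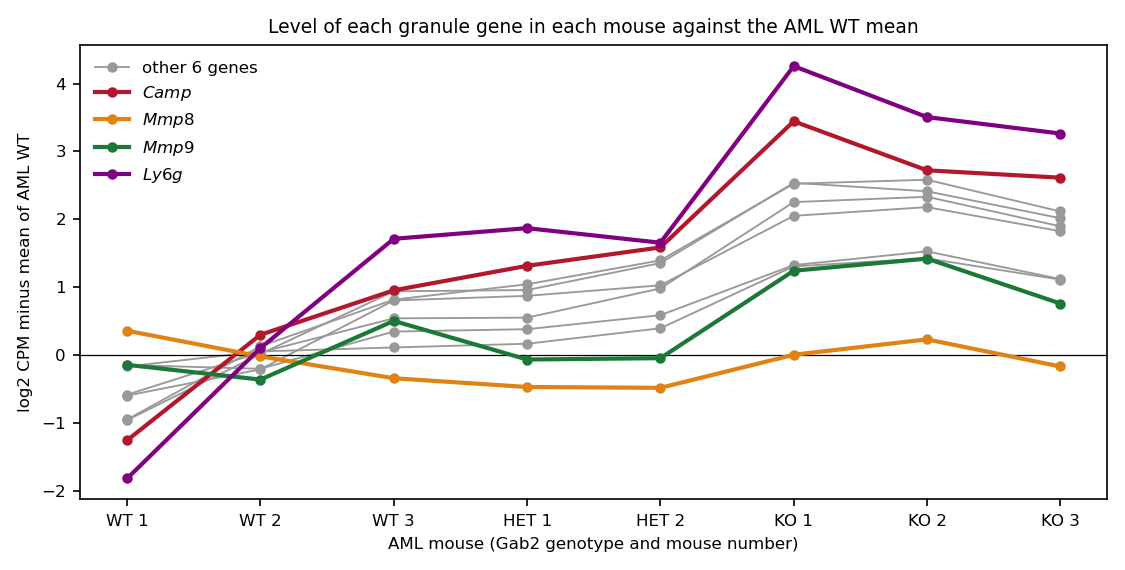
Level of each granule gene in each of the 8 mice (x axis) as log2 CPM minus the mean of the AML WT mice (y axis), with 1 line per gene and Camp, Mmp8, Mmp9 and Ly6g in colour. Ly6g and Camp are highest in the AML KO mice, the 6 genes in grey and Mmp9 lie below them, and Mmp8 stays between −0.48 and 0.36.

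The genes also varied together among mice of the same genotype. AML WT mouse 3 had the highest AML WT level of 9 genes and AML WT mouse 1 the lowest of 7, and AML KO mouse 3 had the lowest AML KO level of all 10. Mmp8 ran the other way in AML WT BM, being highest in mouse 1 and lowest in mouse 3. Over the 8 mice, Pearson's r of log2 CPM lay between 0.80 and 0.997 for the 36 pairs of genes without Mmp8, with a median of 0.961, and between −0.24 and 0.28 for the 9 pairs with Mmp8. Part of this is shared by construction, because the 8 points fall into 3 genotypes and all genes come from the same libraries. After subtraction of the group means the ranges were 0.48 to 0.99 without Mmp8 and −0.81 to −0.19 with it.

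The spread within AML WT BM differed from gene to gene. Between the highest and the lowest AML WT mouse the ratio was 12.5 for Ly6g, 4.63 for Camp, 3.73 for Ltf and 3.40 for Ngp, and 1.46 for Cd177, 1.62 for Mmp8 and 1.82 for Mmp9. In AML KO BM the same ratio was at most 1.99, for Ly6g.

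Per length, Ngp and Camp had the highest means of the 10 transcripts in each genotype. In AML WT BM, Ngp stood at 409.5 ± 227 FPKM (SD, n = 3) and Camp at 349.6 ± 222 FPKM (SD, n = 3), which overlapped. Chil3 at 213 ± 21.3 FPKM lay inside the range of both, Ltf at 105 ± 65.4 FPKM followed, and then came Mmp8 at 56.2 ± 13.7 and Lcn2 at 54.9 ± 20.6 FPKM, which overlapped. Cd177 (32.8 ± 7.21), Mmp9 (17.1 ± 5.59), Ly6g (4.13 ± 4.22) and Itgb2l (3.66 ± 1.94 FPKM) had lower means, and the last pair overlapped (all SD, n = 3). The AML WT mice also overlapped between Ltf and each of Camp, Mmp8 and Lcn2, and between Lcn2 and Cd177.

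In AML KO BM the order by FPKM was not the same. Camp at 2300.3 ± 767 FPKM (SD, n = 3) and Ngp at 1952 ± 326 FPKM overlapped, as did Chil3 at 519 ± 56.1 and Ltf at 465 ± 83.5 FPKM. Lcn2 reached 236 ± 36.2 FPKM and lay in every AML KO mouse above Cd177 (81.5 ± 11.5 FPKM) and Mmp8 (56.4 ± 7.89 FPKM). Mmp9 (37.1 ± 8.32), Ly6g (36.2 ± 13.8) and Itgb2l (13.7 ± 1.67 FPKM) closed the order, with Ly6g overlapping both Mmp9 and Mmp8. Lcn2 and Mmp8 thus overlapped in level in AML WT BM and did not overlap in AML KO BM.

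With 1 Gab2 allele lost, no granule gene was called. The AML HET mean lay between the AML WT and AML KO means for 8 of the 10 genes, all but Mmp8 and Mmp9, as it did for 53.3% of all genes. In log2 differences of AML HET against AML WT BM, Camp had 1.20 (standard error 0.49), Ly6g 1.16 (0.72), Ngp 1.06 (0.39), Ltf 0.97 (0.42), Itgb2l 0.83 (0.34), Lcn2 0.71 (0.29), Cd177 0.47 (0.19) and Chil3 0.28 (0.15). Mmp9 had −0.10 (0.26) and Mmp8 −0.50 (0.20). None of the 10 passed the threshold by edgeR's quasi-likelihood test (adjusted p = 0.990 for each), by DESeq2 or by limma-voom, whereas 7 had an unadjusted p under 0.05, 6 of them with a positive difference and Mmp8 with a negative one, against 2.47% of all genes at that threshold. Among all genes 0.0225% were called in either direction. In 7 genes both AML HET mice were above every AML WT mouse, which was the case for 9.53% of all genes, and in Mmp8 both were below.

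The AML KO mice lay above both AML HET mice in all 10 genes, Mmp8 included, against 13.2% of all genes. In this comparison the log2 differences ranged from 0.51 (standard error 0.20) for Mmp8 to 1.98 (0.75) for Ly6g, with a median of 1.18. Chil3 had 1.00 (0.16) and Mmp9 1.22 (0.27). No granule gene was called by edgeR (lowest adjusted p = 0.261, for Chil3), and edgeR called 0.0% of all genes. All 10 had an unadjusted p under 0.05, as had 5.86% of all genes. DESeq2 called 4 of the 10, namely Lcn2, Chil3, Mmp9 and Cd177, and 77 of all 13305 genes. Limma-voom called none of the 10. The comparisons share mice, AML HET here and AML WT above, so their values are not independent of each other.

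**Figure D3:**
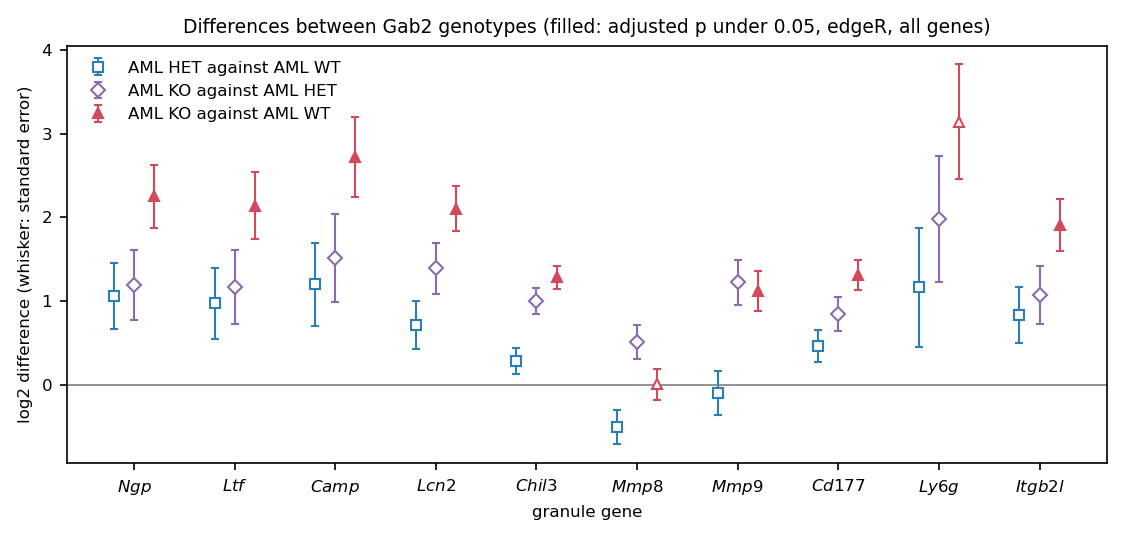
Fitted log2 difference of each granule gene (x axis) for AML HET against AML WT, AML KO against AML HET and AML KO against AML WT, with standard errors as whiskers and filled symbols where the adjusted p was under 0.05. The largest value is 3.14 for Ly6g and unfilled. Mmp8 has the lowest AML HET against AML WT value, −0.50 and also unfilled, and an AML KO against AML WT value near 0.

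Taken as a slope per Gab2 allele lost over the same 8 mice, the increase passed the threshold in 8 of the 10 genes, against 2.11% of all genes called higher. The slopes on the log2 scale were 1.58 (standard error 0.31, edgeR, Benjamini-Hochberg adjusted p = 0.0266) for Ly6g, 1.36 for Camp, 1.13 for Ngp, 1.07 for Ltf, 1.05 for Lcn2, 0.95 for Itgb2l, 0.66 for Cd177 and 0.64 for Chil3. Mmp9 had a slope of 0.56 and missed the threshold with an adjusted p of 0.0714 from the same edgeR test, and Mmp8 had 0.0018. The Ly6g call was lost in 5 of the 8 fits that each left out 1 mouse, with an edgeR adjusted p of up to 0.166. Without AML KO mouse 1 the number of granule genes with a called slope was 5.

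Other genes of the neutrophil series showed where the 10 transcripts stand. Of 24 measured genes of secondary, tertiary and secretory granules outside the 10, 6 rose in AML KO BM and none fell, with a median log2 difference of 0.36. Over all genes, 1.77% were called higher and 0.323% lower. The 6 that rose were Pglyrp1, a bactericidal peptidoglycan-binding protein (2.13, standard error 0.31), Orm1, an acute phase protein (2.30, 0.38), Lrg1, a glycoprotein of neutrophil granules (2.08, 0.28), Fcnb, a ficolin (1.44, 0.22), Slpi, an inhibitor of elastase (0.92, 0.14), and Anxa1, an annexin of tertiary granules (0.77, 0.14). Their adjusted p values were 0.0088 to 0.0244 in edgeR's quasi-likelihood test. Cybb, Hp and Cyba did not pass, with log2 differences of −0.42, 0.47 and 0.42. In 12 of the 24 genes every AML KO mouse lay above every AML WT mouse, against 12.3% of all genes, and in none below.

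Primary granules are the first to be filled. Of 10 measured genes of their contents, only Cd63, a membrane protein, was called higher (log2 difference 1.38, standard error 0.21, adjusted p = 0.0122 in edgeR's quasi-likelihood test), and the median was 0.35. In 6 of the 10, every AML KO mouse lay above every AML WT mouse, against 12.3% of all genes. In 1 of the 10, every AML KO mouse lay below. Mpo, the myeloperoxidase gene, stood at 3019 ± 155 CPM (SD, n = 3) in AML WT and 4003 ± 297 CPM (SD, n = 3) in AML KO BM, a log2 difference of 0.41 that missed the threshold (adjusted p = 0.188, edgeR). Prtn3 had 0.61 and Elane 0.29, and neither passed.

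Among 29 measured genes of late neutrophil maturation outside the granules, 7 rose and none fell, with a median of 1.16. S100a9, the partner of S100a8 in calprotectin, an abundant cytosolic protein of neutrophils, had 830.5 ± 591 CPM in AML WT and 4223 ± 1340.3 CPM in AML KO BM (SD, n = 3 each) and a log2 difference of 2.35 (standard error 0.50, adjusted p = 0.0479, edgeR's quasi-likelihood test). The other 6 were C5ar1 (1.90), the receptor for complement C5a, Wfdc21 (2.63), a secreted WAP domain protein, Trem3 (1.28), a myeloid receptor, Hdc (1.26), which makes histamine, Mxd1 (0.84), a Myc antagonist, and Padi4 (0.64), which citrullinates histones. S100a8 had 2.19 with an adjusted p of 0.0568 in the same test. In 17 of the 29 genes every AML KO mouse lay above every AML WT mouse, against 12.3% of all genes, and in none below.

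Set against S100a8 in the same mouse and per length, the granule genes differed among themselves. The log2 ratio of FPKM of Ngp to S100a8 was −0.70 ± 0.28 in AML WT and −0.71 ± 0.40 in AML KO mice (SD, n = 3 each), and that of Ltf −2.68 ± 0.20 and −2.78 ± 0.30, so that both overlapped between genotypes. For Camp and Ly6g the ratio was higher in every AML KO than in every AML WT mouse. Their mean log2 ratios were −1.01 ± 0.26 in AML WT and −0.51 ± 0.01 in AML KO for Camp, and −7.76 ± 0.63 and −6.51 ± 0.07 for Ly6g (SD, n = 3 each). Mmp8 and Mmp9 had a lower ratio in every AML KO than in every AML WT mouse, with means of −3.42 ± 1.49 in AML WT and −5.82 ± 0.49 in AML KO for Mmp8, and −5.16 ± 0.88 and −6.44 ± 0.46 for Mmp9. For Lcn2, Chil3, Cd177 and Itgb2l the mean ratio differed by −0.26, −1.14, −1.10 and −0.40 between AML KO and AML WT on the log2 scale, with overlap between genotypes. Against Mpo, 8 of the 10 had a higher ratio in every AML KO than in every AML WT mouse, Mmp9 overlapped, and Mmp8 was lower in every AML KO mouse. Against Csf3r, all but Mmp8 had a higher ratio in every AML KO than in every AML WT mouse. Against S100a9, the ratios of Chil3, Cd177, Mmp8 and Mmp9 were lower in every AML KO mouse, and those of Camp and Ly6g higher. Mpo and Csf3r themselves had log2 differences of 0.41 and 0.16 between AML KO and AML WT, and neither was called. The ratios to them therefore largely repeat the differences of the granule genes and are no further evidence. The share of all genes with such ratios was not computed, so the counts of genes without overlap have no background here. These reference genes were chosen with the values known, and the ratios are a description.

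Of 21 transcription factors and nuclear proteins of granulocyte maturation, 2 rose in AML KO BM. Cebpe, the factor named at the outset, went from 13.9 ± 4.07 CPM in AML WT to 22.2 ± 4.38 CPM in AML HET and 47.3 ± 8.05 CPM in AML KO mice (SD, n = 3, 2 and 3), a log2 difference of 1.76 (standard error 0.24, edgeR, Benjamini-Hochberg adjusted p = 0.00898). Gfi1, a repressor needed for neutrophil production, rose by 0.69 (standard error 0.13, adjusted p = 0.0268 in that test). Spi1, coding for PU.1, had a log2 difference of 0.06, Lbr −0.29 and Myb 0.38, none of which passed, and the median of the list was 0.11.

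**Figure D4:**
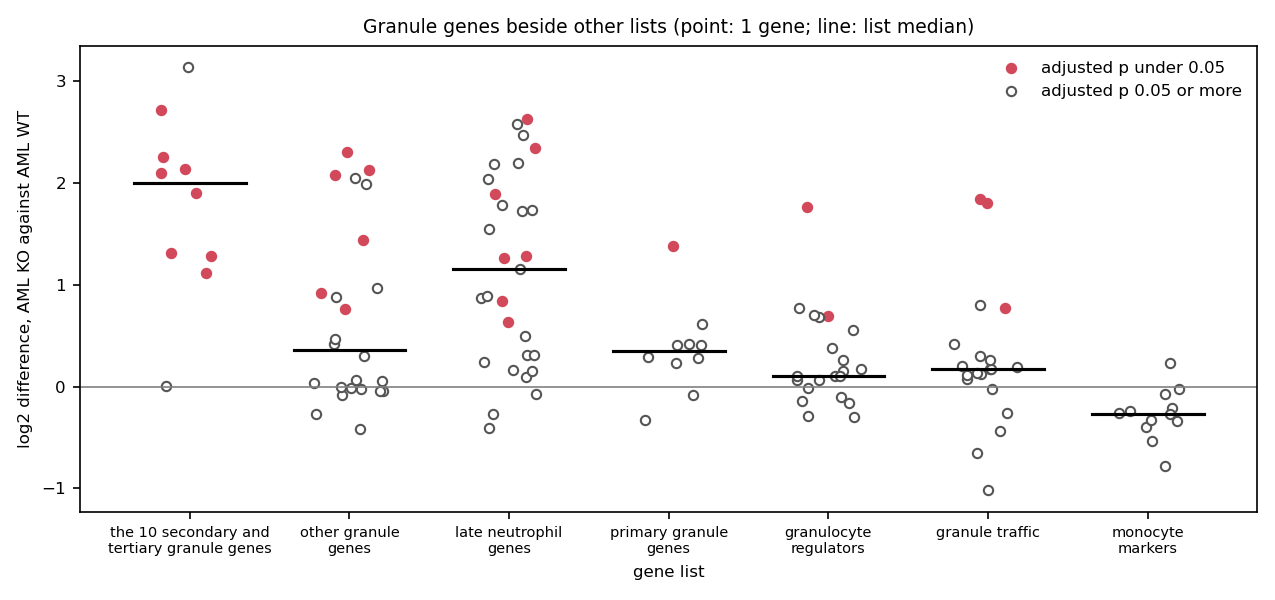
Log2 difference of AML KO against AML WT BM (y axis) for each measured gene of 7 lists (x axis), with the list median as a line and filled points where the adjusted p was under 0.05. The medians are 2.00 for the 10 granule genes, 1.16 for late neutrophil genes and 0.35 for primary granule genes, and −0.27 for monocyte markers, none of which passed.

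Other lists hold genes that act on the granules or their contents. Of 20 genes of granule traffic and exocytosis 3 rose, namely Rab27b (log2 difference 1.80), a small GTPase of secretory granules, and the synaptotagmin-like Sytl4 (1.84) and Sytl1 (0.77), while Rab27a had 0.21 and did not pass. The median of the list was 0.17. Rab27b was low, at means of 2.07 CPM in AML WT and 7.23 CPM in AML KO BM, and so was Sytl4, at 0.58 and 2.10 CPM. Which cells carried these transcripts was not tested. Among 20 measured receptors, inhibitors and partners of the granule proteins none rose and Itgax fell by 1.10 on the log2 scale (standard error 0.23, adjusted p = 0.0457, edgeR's quasi-likelihood test). Of 22 measured relatives of the 10 genes by sequence, Chil1 (2.07) and Chit1 (1.80), both of the family of Chil3, rose. Ly6e (0.03) and Ly6c2 (−0.07), relatives of Ly6g, did not pass.

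Genes outside the 10 whose levels followed them most closely were found by Pearson's r over the 8 mice between each gene's log2 CPM and the mean standardised level of the 10. The nearest were Lrg1 (r = 0.993), Anxa1 (0.993), the receptor kinase gene Tie1 (0.990), Agpat2 (0.988), C5ar1 (0.988), Hdc (0.987), Scarf1 (0.984), 9830107B12Rik (0.984), Ankrd22 (0.980) and Thy1 (0.980). They were selected over the same mice for following genes that differ between the genotypes, so their own differences between genotypes follow from the selection. Tie1 stood at 11.5 ± 2.08 CPM in AML WT, 15.0 ± 1.33 CPM in AML HET and 27.3 ± 5.57 CPM in AML KO BM (SD, n = 3, 2 and 3). Mmp8 had an r of 0.07 with the mean to which it contributes.

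Most markers of erythroid cells, megakaryocytes, and basophils and mast cells were also called higher in AML KO BM. Over all genes, 1.77% were called higher at the same threshold. Smaller parts of the eosinophil and of the stem and progenitor markers were called. Of 17 measured erythroid markers 15 were called higher in AML KO BM, and all 17 had a positive difference. The summed level of the 17 was 342 to 474 CPM in AML WT, 749 to 2369.5 CPM in AML HET and 1636 to 5671 CPM in AML KO mice. Of 14 megakaryocyte markers 13 were called higher and all 14 had a positive difference, with sums of 40.9 to 43.1, 63.9 to 103 and 257 to 376 CPM. Of 5 measured basophil and mast cell markers 4 were called higher (43.6 to 54.4, 87.0 to 97.0 and 149 to 311 CPM). Of 5 measured eosinophil markers 2 were called higher (53.8 to 91.4, 58.6 to 62.2 and 63.3 to 92.1 CPM). The eosinophil sums overlapped between the genotypes. The eosinophil marker Ear2 had a log2 difference of −0.94, which missed the threshold. Its slope per Gab2 allele lost, −0.47, passed it (edgeR, Benjamini-Hochberg adjusted p = 0.0497). Of 11 stem and progenitor markers 2 were called higher and none lower, and 9 had a positive difference. In 6 of the 11, every AML KO mouse lay above every AML WT mouse, against 12.3% of all genes. The sums were 670.0 to 798 CPM in AML WT, 718 to 832 in AML HET and 809 to 931 in AML KO mice, without overlap between AML WT and AML KO. No marker in these lists had a count of 0 in any mouse, but the lowest count was 1 in the eosinophil list and 4 in the megakaryocyte list. Epx, 1 of the 2 eosinophil markers called higher, had a mean of only 0.185 CPM in AML WT BM. The part of these other cells in the granule gene result was not tested.

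Monocytes and macrophages also express Lcn2, Chil3 and Mmp9. None of 12 measured monocyte markers passed the test, with a median log2 difference of −0.27 and sums of 7699 to 10199.5 CPM in AML WT, 7417 to 7443 in AML HET and 5617 to 8507 in AML KO mice. Of 12 macrophage markers 2 were called higher and 2 lower (sums of 534 to 636, 443 to 456 and 312 to 504 CPM). No B cell marker of 11 measured and no T or NK cell marker of 12 measured passed. The neutrophil markers, 11 in number and including Ngp, Ltf, Camp and Ly6g, were counted in every mouse, with Ly6g at 27 counts in AML WT mouse 1 as the lowest.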

How the data were processed

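The 8 libraries, 1 per mouse, were grouped by the Gab2 genotype in the labels (AML WT, n = 3, AML HET, n = 2, AML KO, n = 3). The authors deposited raw counts per gene, without normalization. The submitters' processing notes name Trimmomatic 0.36, STAR 2.5.2b and mm10. The counter, its annotation, its strand setting and its handling of shared reads were not given in the sources used here, nor was the study's test for differential expression. The table holds 13305 genes, of which 13266 were matched to GENCODE M21, and no gene has fewer than 106 counts in all. The libraries hold 28009258 to 39266815 counts, and the lowest count of the 10 genes was 27 (Ly6g). Counting noise and the spread between mice were not separated.

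Counts were fitted in R 4.3.3 with edgeR 4.0.16 (TMM, robust quasi-likelihood) over all 8 mice with genotype as the only term, or with the number of Gab2 alleles lost as a slope. P values were adjusted over all genes by the Benjamini-Hochberg method, with a threshold of 0.05, and standard errors were derived from the F statistic. CPM used TMM library sizes, log2 CPM a prior count of 2, and FPKM the joined exon length in GENCODE. Alternatives were DESeq2 1.42.0, limma-voom (limma 3.58.1), RLE and upper-quartile normalization, a minimum of 1 CPM in 3 mice, the table without the 10 genes with the most counts, the replicate number as a block, only the mice of the groups compared, and each mouse left out in turn. Python 3.11.15 with pandas 2.3.3 served for tables, and matplotlib 3.10.9 for plots. Promoters came from RefSeq (GRCm38.p6).

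The 10 genes and all other lists were chosen with earlier results of these data known. Named besides the 10 were, in each list, up to 6 genes past the threshold with the smallest p and the 3 genes with the highest mean CPM, although not all of them are printed, Gab2 and the 10 genes nearest in pattern.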

Additional observations from a re-analysis of the deposited data

How the results depend on the processing

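The count of the 10 granule genes called higher in AML KO against AML WT BM was 8, and it was 1 to 9 with each mouse left out in turn. With the replicate number as a block it was 1, the gene being Chil3. Deviations from the group mean in same-numbered mice of different genotypes had correlations of −0.51 to 0.29. With 2 or 3 mice per group, these cannot show whether the numbers pair the mice. The block gave 19, 0 and 125 called genes in all for AML KO against AML WT, AML HET against AML WT and the slope per allele. The fit without the block gave 278, 3 and 351. DESeq2 called 730, 59, 77 and 865 genes for AML KO against AML WT, AML HET against AML WT, AML KO against AML HET and the slope, and 4 granule genes for AML KO against AML HET, where edgeR called 0. Limma-voom called 1 gene for AML HET against AML WT. With only the mice of the groups compared, 5 genes were called for AML HET against AML WT and 3 for AML KO against AML HET. With each mouse left out in turn the counts of genes were 40 to 370, 1 to 5, 0 to 4 and 137 to 525 for the same 4 comparisons, and the granule genes with a called slope were 5 to 9. With each mouse left out, the log2 difference of Mmp8 in AML KO against AML WT ranged from −0.15 to 0.19 and was −0.02 without AML WT mouse 2, −0.15 without AML WT mouse 3 and −0.11 without AML KO mouse 2. Its slope ranged from −0.076 to 0.12, with −0.05 without AML WT mouse 3, −0.02 without AML KO mouse 1 and −0.076 without AML KO mouse 2. The Mmp9 difference of AML HET against AML WT ranged from −0.27 to 0.21 and was 0.21 without AML WT mouse 3. The cause of these changes was not tested beyond the smaller number of mice in each. In the AML KO against AML WT comparison, 122 values of single granule genes kept their direction and side of the threshold under an alternative, 31 kept the direction but lost the call, 4 gained it and 3 changed sign. The lowest count of the 10 genes was 27, for Ly6g in AML WT mouse 1, and the AML WT mice ranged 12.5-fold in Ly6g.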

Other observations

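In each mouse, the median over the 10 granule genes of log2 CPM minus the AML WT mean was −0.59, 0.03 and 0.67 in AML WT mice, 0.71 and 1.01 in AML HET mice, and 2.15, 2.26 and 1.86 in AML KO mice. The same median over 29 late neutrophil genes was −0.17, −0.16 and 0.24 in AML WT, 0.37 and 0.38 in AML HET, and 1.49, 0.85 and 0.75 in AML KO mice. Over 10 primary granule genes it was 0.08, 0.04 and −0.10 in AML WT, −0.07 and 0.02 in AML HET, and 0.43, 0.51 and 0.23 in AML KO mice. In AML HET against AML WT BM the median log2 difference was 0.77 for the 10 granule genes, 0.31 for the late neutrophil genes, 0.06 for the 24 other granule genes and 0.02 for the primary granule genes, with no gene of these lists called. As a slope per Gab2 allele lost, 10 late neutrophil genes, 6 other granule genes and 1 primary granule gene were called higher.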
